A study of Mus musculus with 6 samples.

Results

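The liver X receptors (LXR), their target genes and the genes of cholesterol efflux were followed in mouse macrophages given oxidised low-density lipoprotein (oxLDL), the oxidised cholesterol carrier that enters macrophages by way of scavenger receptors. The set held 10 genes, named from knowledge of the pathway while earlier results of these data were known. All 10 were found by symbol among the 24054 genes of the deposited tables. The RNA came in bulk from macrophages that were derived from bone marrow (C57BL/6, WT) and grown for 7 days in medium conditioned by L929 cells, which supplies macrophage growth factor. One group of 3 samples then received oxLDL at 50 µg/ml for 24 hours, and the other group of 3 was left without it. Both groups carry the numbers 1, 2 and 3. What mix means in the sample titles is not explained, and the labels give neither the animals' age nor what a number stands for.

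LXR alpha and LXR beta are nuclear receptors that bind oxysterols, oxidised forms of cholesterol, and act on DNA as partners of the retinoid X receptor. When activated in macrophages they switch on exporters that move cholesterol out of the cell, together with apolipoproteins that receive it, and enzymes that remodel phospholipids. In mouse, oxysterols and desmosterol, an intermediate of cholesterol synthesis, serve as ligands. The classical DNA element is a direct repeat of a hexamer with a spacer of 4 bases, called DR4.

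The Abca1 window is shown because it was the only window of these genes that held the DR4 pattern searched for, and the windows of Arl4c and Nr1h3 are shown because these were the genes that passed the test described below. Each runs from 250 bases before to 50 bases after a start site and is taken from RefSeq (GRCm38.p6). Nr1h3 has a further window, chr2:91194986-91195285, that overlaps the one shown, lacks the DR4 pattern and is not printed. Capitals mark the DR4 pattern.
Abca1, chr4:53159846-53160145, minus strand: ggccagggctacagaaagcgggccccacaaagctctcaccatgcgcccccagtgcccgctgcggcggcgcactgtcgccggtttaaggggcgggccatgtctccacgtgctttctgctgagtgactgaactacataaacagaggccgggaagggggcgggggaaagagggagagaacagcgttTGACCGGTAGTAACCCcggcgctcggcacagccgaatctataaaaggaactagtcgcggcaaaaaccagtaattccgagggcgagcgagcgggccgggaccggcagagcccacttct
Arl4c, chr1:88702142-88702441, minus strand: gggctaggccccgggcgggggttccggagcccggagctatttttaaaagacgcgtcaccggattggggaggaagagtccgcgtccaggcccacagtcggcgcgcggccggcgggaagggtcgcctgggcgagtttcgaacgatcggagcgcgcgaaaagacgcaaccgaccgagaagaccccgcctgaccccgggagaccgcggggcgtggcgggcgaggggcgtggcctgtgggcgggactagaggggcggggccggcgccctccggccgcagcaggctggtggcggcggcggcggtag
Nr1h3, chr2:91195067-91195366, minus strand: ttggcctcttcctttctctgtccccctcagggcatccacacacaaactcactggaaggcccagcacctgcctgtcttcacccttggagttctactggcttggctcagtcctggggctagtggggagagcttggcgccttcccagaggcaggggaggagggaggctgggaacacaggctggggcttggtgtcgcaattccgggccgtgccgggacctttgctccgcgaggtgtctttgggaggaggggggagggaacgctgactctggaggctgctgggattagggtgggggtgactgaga

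RefSeq windows were matched for 8 of the 10 genes, in 11 windows, and not for Abcg1 and Smpdl3a. The pattern was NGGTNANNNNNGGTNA on either strand, a loose form of DR4. It was found in 1 of the 8 genes, Abca1, on the opposite strand at bases -67 to -52 from the start. Of all 27025 genes with windows, 0.818% held it, and of all 32851 windows 0.718% did. The hexamer AGGTCA, 1 repeat unit of the perfect element, was searched on both strands as well and can overlap the DR4 pattern. The hexamer occurred in the window of Apoc2 alone, at -115 to -110 and at 43 to 48. It was held by 18.1% of all genes with windows and by 16.3% of all windows. A match is a description of letters and was not measured as binding here.

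A pair of fits was made across all 11400 genes that passed the count filter, and all 10 genes were among them. Both used edgeR's quasi-likelihood test with Benjamini-Hochberg adjustment over every gene tested. The planned fit had the group as its only term. The other also held the sample number as a block, which compares each oxLDL sample with the untreated sample of its number. The words rose and fell are used here of the fit with the block. Levels are the CPM of the authors' deposited table, counts divided by the library total after TMM scaling, which adjusts for library composition. Totals ran from 13546572 to 15559310 expected counts. The libraries numbered 3 stood apart: log2 CPM of untreated sample 3 correlated at 0.889 and 0.897 with the other untreated samples across genes, while those correlated with each other at 0.984. Samples 1 and 2 of the oxLDL group correlated at 0.983, and sample 3 with them at 0.908 and 0.922. Untreated sample 3 and oxLDL sample 3 correlated with each other at 0.964, more than either did with its own group. Calls among the 10 genes are therefore also given without pair 3.

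Among the 10 genes, 1 rose with oxLDL and 1 fell. Arl4c, a small GTPase of the ARF family that promotes cholesterol transport to the cell surface, approximately doubled in level. Nr1h3, which encodes LXR alpha, went to less than 0.5 of its untreated level in pairs 2 and 3. The other 8 genes did not pass, among them the exporters Abca1 and Abcg1. In all tested genes, 1.91% rose and 3.98% fell, so 1 gene in 10 in each direction rests on a single gene each. Without the block, 0 of the 10 genes passed in edgeR, as did 0% of all genes (smallest adjusted p = 0.0667). At an unadjusted p under 0.05 in that fit, 4 of the 10 genes were found, namely Apoc2, Pltp, Arl4c and Nr1h3, against 14.7% of all tested genes. The median log2 fold change of the 10 genes was 0.03 with the block, beside 0.01 for all tested genes.

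**Figure D1:**
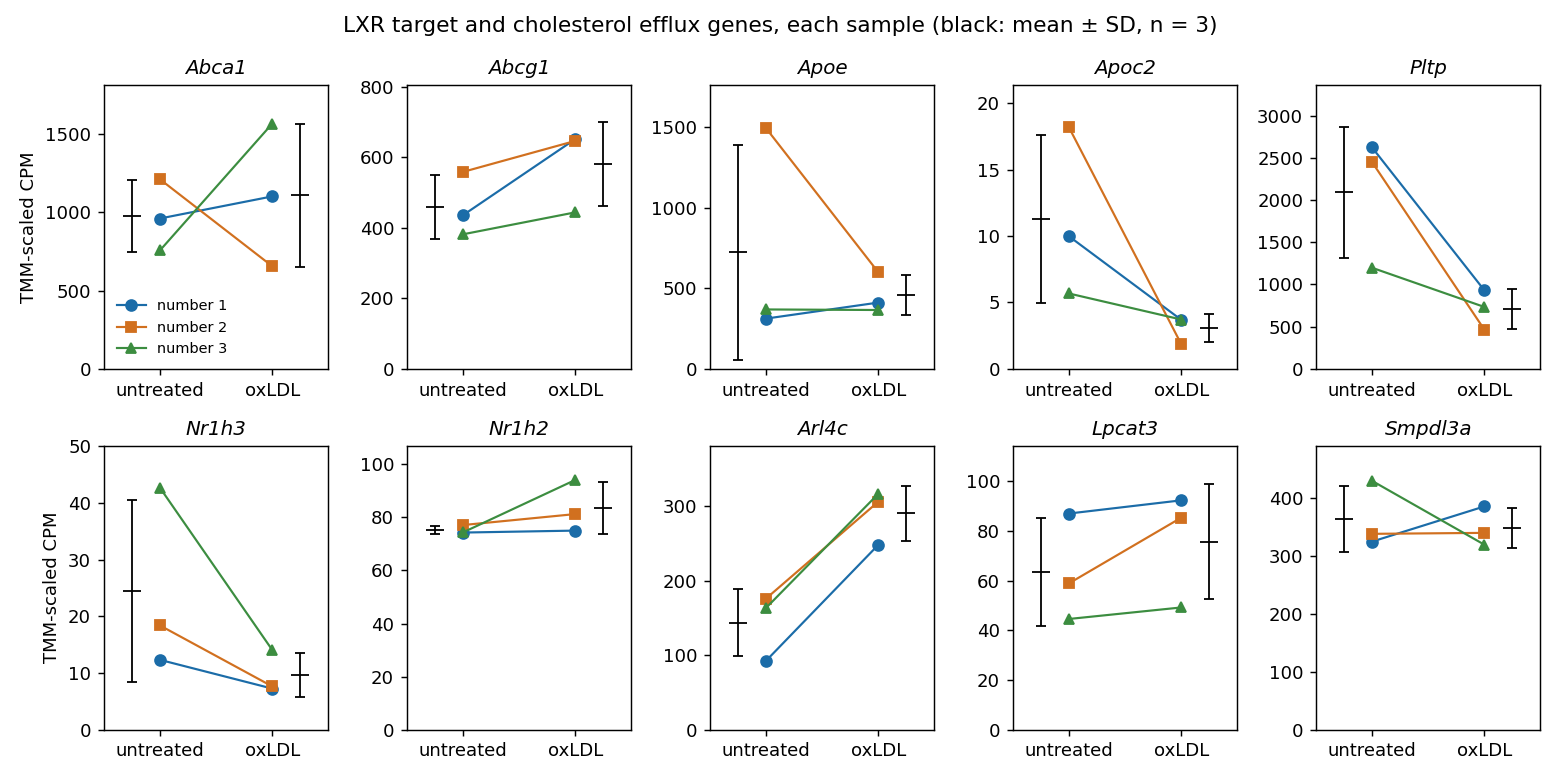
TMM-scaled CPM of the 10 genes (vertical axes, linear from 0) in untreated and oxLDL samples. Lines join samples of 1 number, and black marks give the mean ± SD of the 3 samples of a group. All lines of Arl4c, Abcg1, Nr1h2 and Lpcat3 go up and all lines of Nr1h3, Pltp and Apoc2 go down. Those of Abca1, Apoe and Smpdl3a differ in direction.

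Abca1 encodes the transporter that loads cholesterol and phospholipid onto lipid-poor apolipoprotein A-I. Untreated samples 1, 2 and 3 measured 961, 1212 and 757 CPM, and the oxLDL samples of those numbers 1103, 656 and 1568 CPM. The oxLDL samples held both the lowest and the highest value of all 6, so the untreated range lay inside the oxLDL range. The pairs disagreed: the ratio of oxLDL to untreated was 1.15 in pair 1, 0.541 in pair 2 and 2.07 in pair 3. These levels rest on 9884 to 21521 expected counts per sample. In the blocked fit the log2 fold change of Abca1 was 0.12 ± 0.41 (SE, adjusted p = 0.865 by edgeR), with a 95% interval of -0.94 to 1.19. Without pair 3 it turned to -0.33, and without oxLDL sample 3 and without the block to -0.16.

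Abcg1, the exporter that passes cholesterol to mature HDL particles, went the same way in every pair. Its levels were 435, 558 and 381 CPM untreated and 651, 646 and 444 CPM with oxLDL. Sample 3 was the lowest of each group, and the groups overlapped because untreated sample 2 lay above oxLDL sample 3. The log2 ratios were 0.58, 0.21 and 0.22 in pairs 1, 2 and 3. The log2 fold change was 0.34 ± 0.16 (SE) and did not pass with the block (edgeR adjusted p = 0.252). Its 95% interval, -0.09 to 0.76, holds both no change and a rise by a factor of 1.70.

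Apoe, apolipoprotein E, is secreted by macrophages and takes up exported cholesterol. It measured 312, 1493 and 369 CPM untreated and 411, 599 and 365 CPM with oxLDL. Untreated sample 2 was far above the other 5 samples, which lay between 312 and 599 CPM. The log2 ratios were 0.40, -1.32 and -0.01, so that pair 2 differed from both others. In the blocked fit its log2 fold change was -0.30 ± 0.38 (SE; edgeR adjusted p = 0.628), and with pair 2 left out it was 0.19.

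Apoc2 lies in the same gene cluster as Apoe and encodes the activator of lipoprotein lipase. Its levels were low, 9.98, 18.2 and 5.68 CPM untreated and 3.69, 1.86 and 3.71 CPM with oxLDL, from 28 to 253 expected counts. Every oxLDL sample was below every untreated sample. The log2 ratios were -1.44, -3.29 and -0.61, all negative but unequal in size. The fold change, -1.75 ± 0.55 on the log2 scale with the block, did not pass (edgeR adjusted p = 0.125). With pair 3 left out, where 3446 of 11543 tested genes passed, it did (-2.30, edgeR adjusted p = 0.0358). Without pair 2 it was -1.03 (adjusted p = 0.306, edgeR) and without pair 1 it was -1.95 (adjusted p = 0.390, edgeR). In GENCODE M21, 646 exonic bases of Apoc2 also belong to Gm44805 on the same strand, a gene not found by symbol in the deposited tables. The expected counts of Apoc2 were whole in all 6 samples.

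Pltp, the phospholipid transfer protein, moves phospholipid between lipoproteins and remodels HDL. Its levels were 2624, 2451 and 1198 CPM untreated and 932, 466 and 734 CPM with oxLDL. No oxLDL sample reached the lowest untreated one. The ratio was 0.355 in pair 1, 0.190 in pair 2 and 0.612 in pair 3. Pltp's log2 fold change was -1.53 ± 0.37 (SE) and missed the threshold with the block (edgeR adjusted p = 0.0774). It passed when pair 3 was left out (-1.93, edgeR adjusted p = 0.00738), where 3446 of 11543 tested genes passed. It did not pass without pair 1 (-1.57, edgeR adjusted p = 0.336) or pair 2 (-1.11, edgeR adjusted p = 0.325). In the fit without the block, Pltp passed when untreated sample 3 was left out (-1.83, edgeR adjusted p = 0.0405). There 737 of 11626 tested genes passed.

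The counts of Pltp carry a further limit. In GENCODE M21, 495 exonic bases of Pltp lie over exons of Ctsa, the gene of cathepsin A, on the other strand. The expected counts of both genes were not whole in 6 of 6 samples, as happens where RSEM divides a read between genes. Ctsa, named here for this overlap and outside the rule for named genes, measured 621, 735 and 967 CPM untreated and 1200, 1230 and 1349 CPM with oxLDL. Its direction was thus opposite to that of Pltp in every pair. The library kit was stranded, but whether the counting used strand is not given in the sources used here, and the part of shared reads in the Pltp values was not tested.

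Of the receptors, Nr1h3 (LXR alpha) had 12.3, 18.4 and 42.7 CPM without oxLDL and 7.25, 7.63 and 14.1 CPM with it. Sample 3 was the highest of its group in both groups, and oxLDL sample 3 lay above untreated sample 1, so the groups overlapped although each pair went down. Ratios were 0.588, 0.415 and 0.329. Nr1h3 fell by a log2 fold change of -1.23 ± 0.20 (SE; with edgeR an adjusted p of 0.0452 under the block and 0.330 under group alone). The call held without pair 3 (-1.01, edgeR adjusted p = 0.0192), where 3446 of 11543 tested genes passed. It ended without pair 1 (-1.46, adjusted p = 0.175, edgeR) and without pair 2 (-1.20, adjusted p = 0.217, edgeR), where 0 of all genes passed.

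Nr1h2, which encodes LXR beta, was the steadiest of the set among untreated samples, at 74.3, 77.1 and 74.3 CPM. With oxLDL it measured 75.0, 81.2 and 94.1 CPM. Sample 1 of the oxLDL group lay inside the untreated range, and sample 3 was the highest of the 6. Its log2 fold change was 0.14 ± 0.11 (SE) with the block and missed the threshold (edgeR adjusted p = 0.446). The 95% interval as a fold ran from 0.901 to 1.35.

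Per length, LXR beta RNA was more abundant than LXR alpha RNA in every sample. On the scale of CPM per kilobase of exon, the level of Nr1h2 over that of Nr1h3 was 6.46, 4.49 and 1.86 in untreated samples 1, 2 and 3. With oxLDL the same ratio was 11.1, 11.4 and 7.17. The ratio was higher with oxLDL in each pair and the groups did not overlap; the difference was not tested. Lengths come from GENCODE M21, which may not be the annotation behind the counts.

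Arl4c was the gene that rose. It measured 92.2, 176 and 163 CPM untreated and 248, 306 and 316 CPM with oxLDL. All oxLDL samples lay above all untreated ones. The ratio was 2.69 in pair 1, 1.74 in pair 2 and 1.94 in pair 3. The log2 fold change was 1.06 ± 0.17 (SE; with edgeR an adjusted p of 0.0444 under the block and 0.198 under group alone), a fold of 2.08 with a 95% interval of 1.52 to 2.85. Without pair 3 the call held (1.12, edgeR adjusted p = 0.0117), where 3446 of 11543 tested genes passed. Without pair 1 it was 0.86 (adjusted p = 0.253, edgeR), and without pair 2 it was 1.19 (adjusted p = 0.175, edgeR), where the call ended.

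Lpcat3 encodes an enzyme that builds polyunsaturated chains into phospholipids. It measured 86.9, 58.9 and 44.5 CPM untreated and 92.3, 85.3 and 49.2 CPM with oxLDL. The order of the numbers, 1 above 2 above 3, was the same in both groups, and the groups overlapped. The log2 fold change was 0.25 ± 0.13 (SE; edgeR adjusted p = 0.281 with the block), with log2 ratios of 0.09, 0.54 and 0.14. Lpcat3 counts were fractional in all 6 samples, and 38 exonic bases lie over Emg1 on the other strand. Emg1, also named only for its overlap, measured 33.3 ± 5.60 CPM untreated and 27.5 ± 0.598 CPM with oxLDL (SD, n = 3).

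Smpdl3a encodes a secreted phosphodiesterase related to acid sphingomyelinase and is an LXR target in macrophages. Its levels were 324, 337 and 429 CPM untreated and 385, 339 and 319 CPM with oxLDL. The lowest of the 6 values was that of oxLDL sample 3 and the highest that of untreated sample 3. The pairs disagreed, with log2 ratios of 0.25, 0.01 and -0.43. The log2 fold change with the block was -0.06 ± 0.19 (SE; edgeR adjusted p = 0.863), and without pair 3 it was 0.14.

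Counted over the set, 7 of 10 genes had the same direction in all 3 pairs, as had 53.1% of all tested genes. The 3 genes whose pairs disagreed were Abca1, Apoe and Smpdl3a. The groups did not overlap in 3 of 10 genes, Arl4c, Pltp and Apoc2, beside 21.0% of all tested genes. Changes beyond 2-fold within a pair were found for 3 genes in pair 1, 4 in pair 2 and 2 in pair 3. Over all tested genes those shares were 17.4%, 19.6% and 10.01%. The median log2 ratio of the 10 genes was 0.14, -0.44 and 0.06 in pairs 1, 2 and 3, and that of all tested genes was within 0.01 of 0 in each. Whether the response differed between pairs cannot be tested, since a pair holds 1 library of each group.

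**Figure D2:**
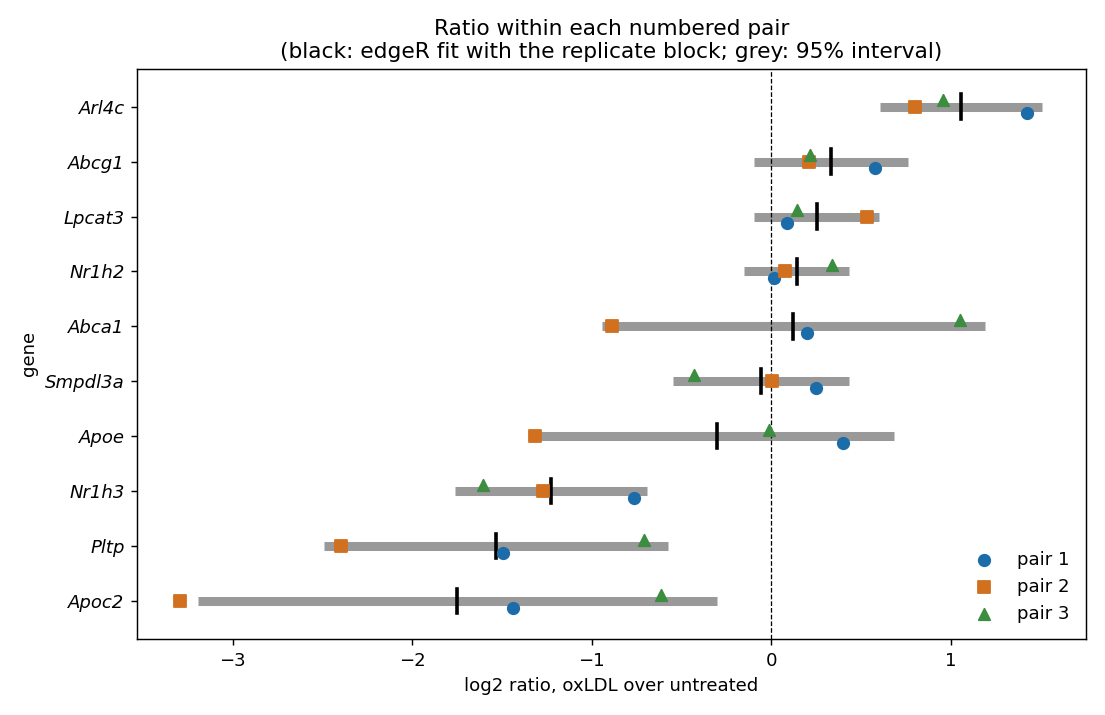
Log2 ratio of oxLDL to untreated CPM (horizontal axis) for each of the 10 genes, with a coloured mark per numbered pair, the fit with the block in black and its 95% interval in grey. The intervals, none adjusted for the number of genes tested, lie away from 0 for Arl4c, Nr1h3, Pltp and Apoc2. Of these, Arl4c and Nr1h3 passed after adjustment. The marks of Abca1 spread from -0.89 to 1.05.

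Levels of different genes were compared per kilobase of exon only. In untreated samples Pltp was highest, at 888 ± 331 CPM per kilobase, followed by Apoe at 394 ± 363 (SD, n = 3), and their ranges overlapped. Smpdl3a came next by mean at 185 ± 29.1 CPM per kilobase. Its range overlapped that of Apoe, whose mean was raised by untreated sample 2 (812) over samples 1 and 3 (170 and 201). Smpdl3a lay above every value of Abca1, which had 95.2 ± 22.2. Abca1 and Abcg1 (67.1 ± 13.3 CPM per kilobase) overlapped. Nr1h2 at 37.5 ± 0.807 CPM per kilobase lay below all values of Abcg1 and overlapped Lpcat3 at 27.8 ± 9.46. The lowest were Arl4c at 26.2 ± 8.20, Apoc2 at 13.9 ± 7.81 and Nr1h3 at 11.4 ± 7.48 CPM per kilobase, each overlapping its neighbour in this order. With oxLDL, Arl4c at 52.8 ± 6.72 CPM per kilobase was above Nr1h2 at 41.6 ± 4.85, with overlapping ranges. Pltp had the highest mean with oxLDL, 302 ± 99.3 CPM per kilobase, but overlapped Apoe, which was above it in oxLDL sample 2 (326 against 198).

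Genes of like pattern were sought among 8634 other tested genes (mean log2 CPM 3 or more), by the root-mean-square difference of log2 CPM centred on the 6 samples. For Abca1 the nearest were Klhl24 (0.22), 5830418K08Rik (0.22) and Cluap1 (0.23). Klhl24 measured 199, 211 and 137 CPM untreated and 219, 170 and 254 CPM with oxLDL, up in pairs 1 and 3 and down in pair 2, as Abca1 was. For Nr1h3 they were Tspan3 (0.20), the scavenger receptor gene Msr1 (0.22) and G530011O06Rik (0.22). Msr1 went from 104, 117 and 365 CPM to 66.7, 47.2 and 117 CPM and was highest in the samples numbered 3. For Arl4c they were Nlgn2 (0.18), Acox3 (0.20), which encodes a peroxisomal acyl-CoA oxidase, and Zfp874a (0.21). These are descriptions over 6 samples that share their pairs.

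Other LXR target genes were followed as a list of 19, of which 16 were tested. In the blocked fit 1 of them fell and 0 rose, 15 missed the threshold, and the median log2 fold change was -0.07. Over all tested genes 3.98% fell and 1.91% rose, so the call in this list rests on a single gene. The gene that fell was Lpl, the secreted lipoprotein lipase that Apoc2 activates. Lpl measured 4546, 4996 and 541 CPM untreated and 1935, 1204 and 233 CPM with oxLDL. Samples numbered 3 were the lowest of each group, and the groups overlapped. Its log2 fold change was -1.50 ± 0.26 (SE; edgeR adjusted p = 0.0483), from counts that were fractional in all 6 samples. Cd5l, a secreted macrophage protein, measured 1461 ± 882 and 913 ± 796 CPM (SD, n = 3) and missed the threshold (-0.75 ± 0.35, edgeR adjusted p = 0.236). The members not tested were Abcg4, Apoc1 and Apoc4, each under 1 CPM in the mean of both groups.

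The receptors' partners, coactivators and corepressors formed a list of 15, of which 12 were tested. In the fit with the block 0 passed in either direction, and without it 0 had an unadjusted p under 0.05 in edgeR. Over all tested genes 3.98% fell and 1.91% rose with the block, and 14.7% had that unadjusted p without it. The median log2 fold change of the 12 was -0.12. The corepressor Ncor1 measured 318 ± 45.4 CPM untreated and 295 ± 16.3 CPM with oxLDL (SD, n = 3). The acetyltransferase Ep300 measured 335 ± 97.4 and 235 ± 35.1 CPM, a change of -0.48 ± 0.17 on the log2 scale that missed the threshold (edgeR adjusted p = 0.153).

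Among enzymes that make or clear LXR ligands, Ch25h, Cyp7b1, Cyp46a1, Cyp11a1 and Sult2b1 had too few counts to pass the filter and were not tested. Hsd3b7, an enzyme of bile acid synthesis that acts on 7-alpha-hydroxylated oxysterols, rose from 33.8, 36.4 and 71.8 CPM to 72.6, 95.9 and 139 CPM (log2 fold change 1.15 ± 0.13, SE; edgeR adjusted p = 0.0291). The groups did not overlap. Ebp, a sterol isomerase, measured 32.1 ± 4.49 and 29.7 ± 9.66 CPM (SD, n = 3) and did not pass.

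Cholesterol delivery, storage and HDL handling was a list of 13, of which 11 were tested. In the blocked fit 2 of them fell and 0 rose, 9 missed the threshold, and the median log2 fold change was 0.44. Over all tested genes 3.98% fell and 1.91% rose. Scarb1, the HDL receptor that also passes cholesterol both ways across the membrane, fell from 211, 158 and 54.3 CPM to 75.4, 60.8 and 23.7 CPM (-1.36 ± 0.11, SE; edgeR adjusted p = 0.0286). Stard3, a tether that carries cholesterol at late endosomes, fell from 106, 108 and 95.1 CPM to 48.3, 38.0 and 47.7 CPM (-1.21 ± 0.14, edgeR adjusted p = 0.0287). The groups did not overlap for Stard3 and did for Scarb1, which was lowest in the samples numbered 3. Lipa, the lysosomal acid lipase, measured 1148 ± 196 and 1778 ± 866 CPM (SD, n = 3) and did not pass (0.49 ± 0.34, edgeR adjusted p = 0.387). Npc2, which moves cholesterol out of the lysosome, measured 999 ± 140 and 740.2 ± 27.6 CPM, without overlap, and missed the threshold (edgeR adjusted p = 0.208). Without pair 1 and without pair 2, where the blocked fit passed 0 of all genes, the calls of Lpl, Hsd3b7, Scarb1 and Stard3 ended too.

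**Figure D3:**
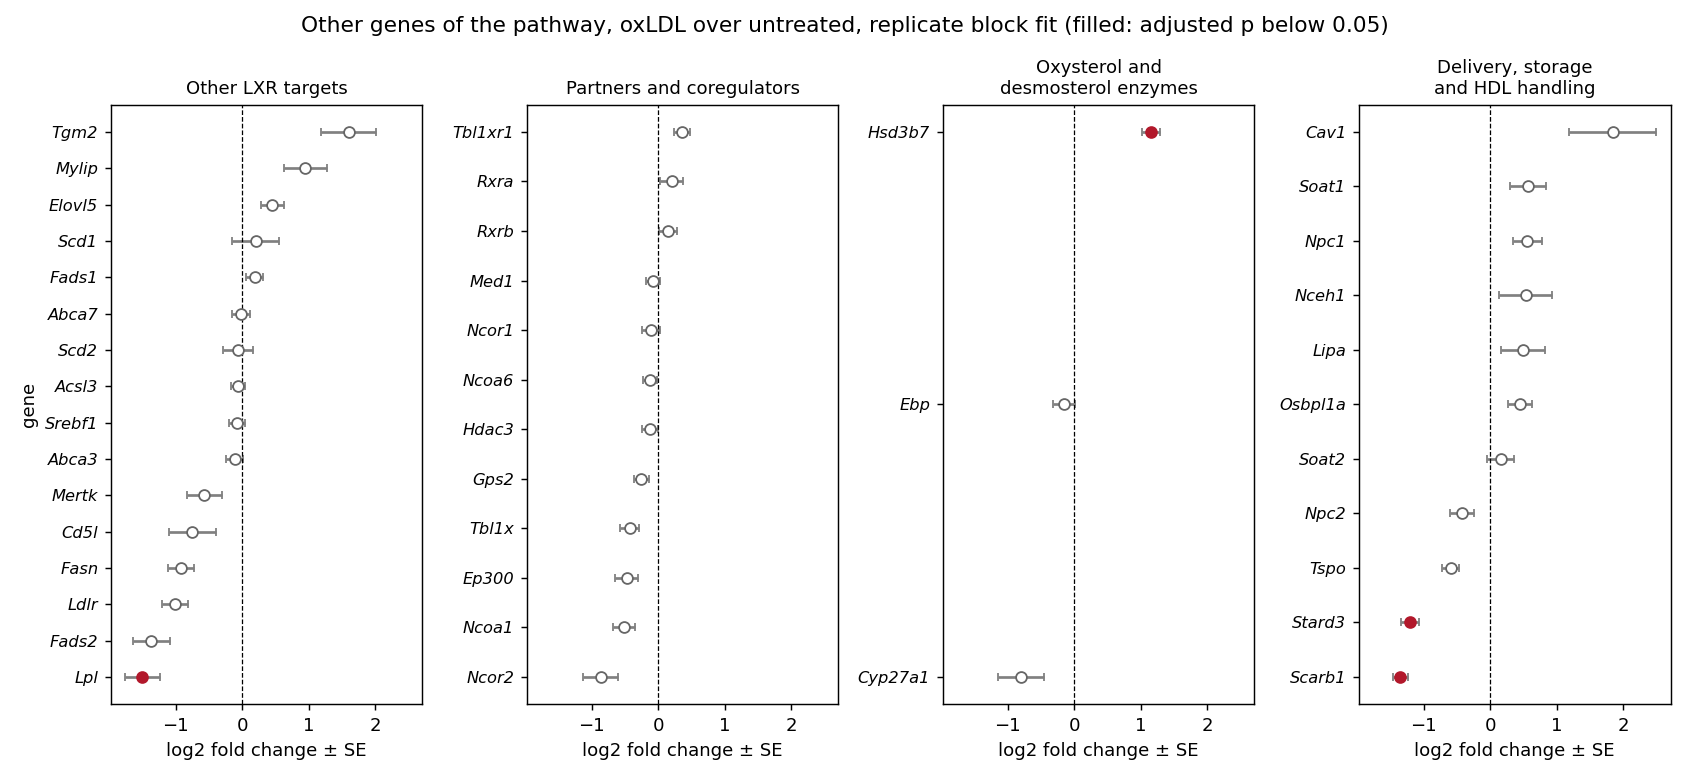
Log2 fold change ± SE (horizontal axes) of the tested genes reported here of 4 lists around the LXR pathway, from the fit with the block. Filled points passed an adjusted p of 0.05: Hsd3b7 to the right, and Lpl, Stard3 and Scarb1 to the left of 0.

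The labelled cell type was checked against its markers. Of 10 macrophage markers, 9 were in the table (Adgre1 only under its older symbol Emr1), and their summed level ran from 14327 to 37273 CPM in untreated and from 11732 to 19591 CPM in oxLDL samples. The sum was lower with oxLDL in each pair, 37273 against 19591, 30292 against 11732 and 14327 against 13392 CPM. Lyz2, named as the largest part of the sum, measured 19463, 13497 and 5151 CPM untreated and 10504, 5395 and 4320 CPM with oxLDL. Single markers differed in direction: Emr1 measured 9233, 6559 and 3057 CPM untreated and 1349, 448 and 2516 CPM with oxLDL, while Cd68 measured 746, 1094 and 1183 CPM untreated and 1609, 1634 and 1337 CPM with oxLDL. Neither passed with the block (edgeR adjusted p = 0.145 for Emr1 and 0.187 for Cd68); both were chosen for mention after their values were seen. Summed neutrophil and granulocyte markers ran from 7.43 to 36.7 CPM untreated and from 1.33 to 5.50 CPM with oxLDL, with 7 of 8 in the table. Stromal markers stayed at or under 0.405 CPM, with Pdgfra at 0 in every sample, T and NK cell markers at or under 1.06 CPM, and mast cell and basophil markers at or under 0.811 CPM. Dendritic cell markers summed to 4.31 to 8.65 CPM untreated and 3.56 to 15.5 CPM with oxLDL. Erythroid and megakaryocyte markers summed to 12.7 to 19.3 and 12.4 to 24.7 CPM, with Hbb-b1 at 0. B cell markers ran from 3.45 to 38.3 CPM untreated and from 1.75 to 9.53 CPM with oxLDL, nearly all of it Cd79b, which fell, while Cd79a and Ms4a1 were each at or under 0.203 CPM. The part of these levels in the results for the 10 genes was not tested. In bulk RNA, fewer cells that express a gene and less RNA of it per cell cannot be told apart.

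**Figure D4:**
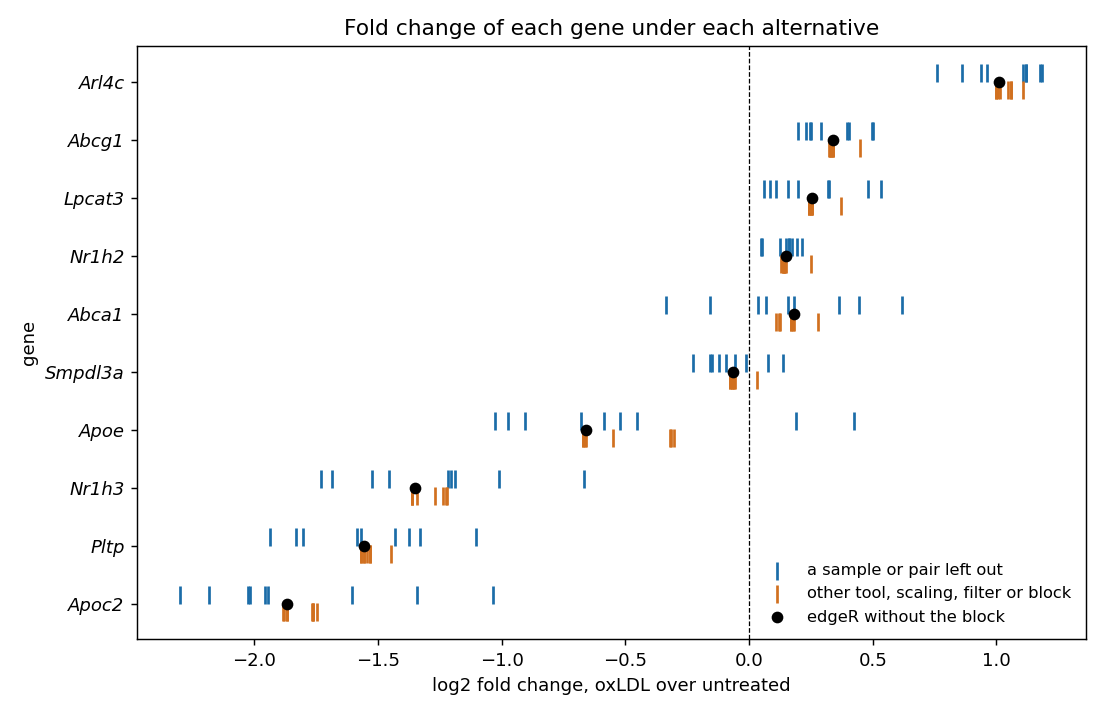
Log2 fold change of each of the 10 genes (horizontal axis) under edgeR without the block (black), other tools, scalings, filters or the block (orange) and with a sample or pair left out (blue). Arl4c lies between 0.76 and 1.19 and Nr1h3 between -1.73 and -0.67 throughout, while Abca1, Apoe and Smpdl3a fall on both sides of 0.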

How the data were processed

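The deposited tables covered 6 samples in 2 groups of 3, grouped and numbered by their titles. Per the submitters' processing notes, Bowtie2 2.1.0, RSEM 1.2.15 and edgeR (no version) were used. The notes list the human build hg19 although samples and symbols are mouse, so no coordinates are given for the counts. The authors deposited RSEM expected counts, of which 10.4% to 11.1% were not whole (tolerance 0.005), and a normalised signal, TMM-scaled CPM, per the file headers and names. In that signal 100% of recovered values were whole reads, and at least 99.9% equalled the rounded expected counts.

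Expected counts were rounded. Genes passing filterByExpr (minimum count 10, minimum total 15) entered edgeR 4.0.16 in R 4.3.3 with TMM factors of 0.942 to 1.06, glmQLFit with robust estimation and glmQLFTest, adjusted over 11400 genes with a threshold of 0.05. The script was tested on simulated data. Each SE and 95% interval was computed from the estimate and its F value. The fit without the block was planned. It is reported beside the fit with the replicate block because same-numbered samples deviated together from their group means. Their r across genes was 0.66, 0.45 and 0.70, each over 0.1. Differently numbered samples passed that limit too. Untreated sample 2 correlated with oxLDL sample 1 at 0.63, and untreated sample 1 with oxLDL sample 2 at 0.20. Deviations from a group mean are not independent, so the samples numbered 3, apart in both groups, can raise every same-numbered r. The check therefore sets number 3 apart from 1 and 2 and cannot tell whether 1 and 2 are matched rightly. The calls with the block rest on that matching. Nothing in the labels says that replicates were separate animals or cultures, so p-values measure the spread between these samples, which may be technical. The 95% intervals rest on that same spread.

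The 10 genes and all lists were chosen with earlier results of these data known. Named genes are the 10, list genes that passed with the block, the 2 of each list with the highest mean CPM, and the 3 nearest in pattern to Abca1, Nr1h3 and Arl4c. Some genes of the lists are not reported here. DESeq2 1.42.0, limma 3.58.1 (voom), other scalings, other filters and left-out samples were the alternatives.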

Additional observations from a re-analysis of the deposited data

How the results depend on the processing

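Of the 10 genes, edgeR without the block passed 0, and so it did with size factors (RLE), with library totals alone, with no filter and with a strict filter (minimum count 30). The number that passed higher was 1 with the replicate block, 1 with DESeq2 and 1 with DESeq2 with the replicate block, in each case Arl4c. The number that passed lower was 1 (Nr1h3), 2 (Apoc2 and Pltp) and 3 (Apoc2, Nr1h3 and Pltp) in the same order. With limma-voom 0 of the 10 passed in either direction. Over all tested genes the count was 0 without the block, 672 with the replicate block, 872 with DESeq2, 1853 with DESeq2 and the replicate block, 10 with limma-voom and 8 with no filter. Leaving out each sample in turn gave 0 to 737 genes, 0 higher and 0 to 1 lower among the 10. The highest count was without untreated sample 3, and 31 passed without oxLDL sample 3. With the replicate block and a pair left out, 0 to 3446 genes passed, with 0 to 1 higher and 0 to 3 lower among the 10. All of these calls came with pair 3 left out, where 11543 genes were tested. The count was 0 without pair 1 and without pair 2. The cause was not tested.

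Signs turned for 3 genes. Leaving out each sample in turn gave -0.16 to 0.45 for Abca1, -1.03 to 0.42 for Apoe and -0.16 to 0.079 for Smpdl3a. Abca1 was -0.16 without oxLDL sample 3 and -0.33 with the replicate block without pair 3. Apoe was 0.42 without untreated sample 2 and 0.19 with the replicate block without pair 2. Smpdl3a was 0.034 with library totals alone, 0.079 without untreated sample 3 and 0.14 with the replicate block without pair 3. Library totals alone moved the fold change of the median gene by 0.10 on the log2 scale, so 0.034 for Smpdl3a is below that shift. The other 7 genes kept their sign under all 17 alternatives. Fold changes of Arl4c ran from 0.76 to 1.19, with adjusted p from 2.66e-05 to 0.636, and those of Nr1h3 from -1.73 to -0.67, with adjusted p from 0.000299 to 0.741, across edgeR, DESeq2 and limma-voom. Low counts limit Apoc2 most, with 28 in oxLDL sample 2.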
